A study of Aedes aegypti with 6 samples.

Results

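The genes described here are germline genes of the yellow fever mosquito, Aedes aegypti, measured in testes of early male pupae. They were chosen by identifier: AAEL004978 (vasa), AAEL012107 (nanos), AAEL006726 (zpg) and AAEL010097 (exuperantia). No measured value was used to select them, but earlier results of these data were known when they were chosen. Of these 4 identifiers, 3 have a row in the table of 12813 genes, each with 1 transcript, and AAEL004978 has none and is not analysed here. The gene names were given together with the identifiers, since the files hold identifiers only, and 0 of the files' identifiers were found in the RefSeq table of 19623 genes (assembly AaegL5.0). Positions and sequences are therefore not given.

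The series compared testes of T37, a strain that carries a meiotic drive, with testes of RED, a strain without drive. Each strain is represented by 3 one-colour NimbleGen arrays, and each array by its own RNA extract. Both strains were reared alike at 26°C to the early pupal stage and the labels list no treatment. The sources used here do not say how many males went into an extract or how far the strains share a genetic background, so the drive cannot be told apart from any other difference between the strains. The free-text notes of the RED samples also call them T37 replicates, whereas their titles, sources and strain labels all say RED, and these were followed.

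In flies, where these genes were characterised, the germline is set apart by proteins that act on RNA and by the contacts that germ cells keep with the somatic cells around them. Vasa is a DEAD-box RNA helicase found in germ cells. Nanos is an RNA-binding protein that represses translation and helps to maintain germline stem cells. The zpg gene (zero population growth) encodes an innexin, a gap junction protein through which germ cells are coupled to somatic cells and without which early germ cells are lost. Exuperantia localises messenger RNA in the oocyte and is also needed for spermatogenesis. In mosquitoes, the regulatory regions of these genes have been used to drive transgenes in the germline.

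All 3 measured genes lay in the bright part of every array, in both strains. On the T37 arrays they stood between percentiles 83.1 and 93.7 of all genes of the array, and on the RED arrays between percentiles 67.8 and 87.4. The intensity of a feature depends on its probes, so these percentiles place each gene among all features and do not rank the 3 transcripts by abundance. Detection calls were not used here, but every one of the 18 values lay at least 4.67 on the log2 scale above the 5th percentile of its array, the lowest being nanos on RED replicate 1. Transcripts assigned to germline genes were thus measured well above the dim end of the arrays in testes of both strains. In whole testes, a difference in the number of germ cells and a difference in RNA per germ cell cannot be told apart.

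**Figure D1:**
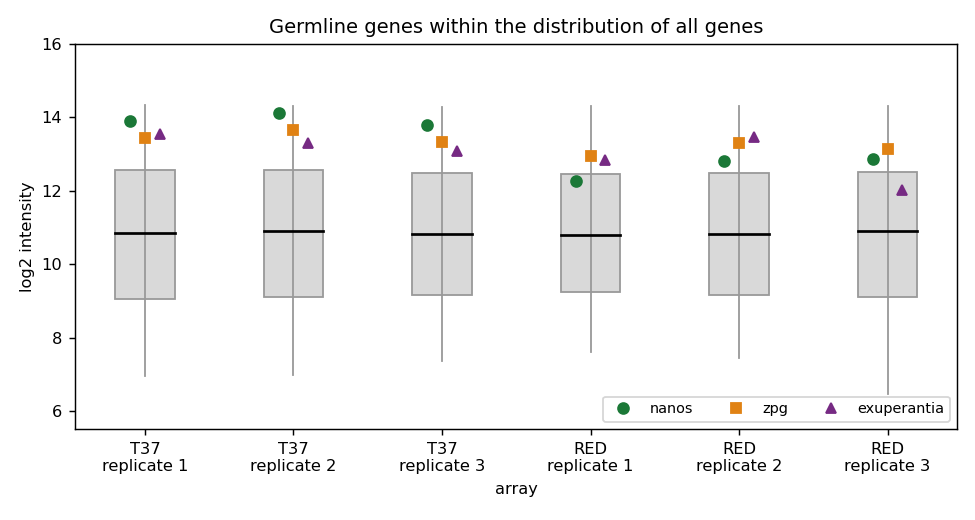
Log2 intensity (vertical axis) of nanos, zpg and exuperantia on each of the 6 arrays, drawn over the distribution of all 12813 genes; boxes span the 25th to the 75th percentile with the median as a line, and grey lines span the 5th to the 95th percentile. All points lie above the array medians, and the 2 points within a box are nanos on RED replicate 1 and exuperantia on RED replicate 3.

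Of the 3 measured genes, nanos, the translational repressor, was higher in testes of the drive strain by limma at an adjusted p under 0.05, and zpg and exuperantia did not pass. All 3 estimates were above 0, as were those of 49.3% of all genes. The members' median log2 difference (T37 minus RED) was 0.53, against -0.01 over all genes. With 3 members this median is simply the exuperantia estimate, which did not pass the test. That estimate was 0.15 without RED replicate 3 and 0.87 without RED replicate 2. A shared rise of the 3 genes was not tested. Among all 12813 genes, 4.53% passed this test in either direction and 2.44% passed with a higher level in T37. At an unadjusted p under 0.05 the 1 member that passed was again nanos, where 22.7% of all genes did. For nanos and zpg all T37 arrays lay above all RED arrays, as they did for 15.4% of all genes. Genes of similar brightness, the decile in which all 3 members fall (1281 genes), had a median log2 difference of 0.08, and 3.04% of them passed the test.

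**Figure D2:**
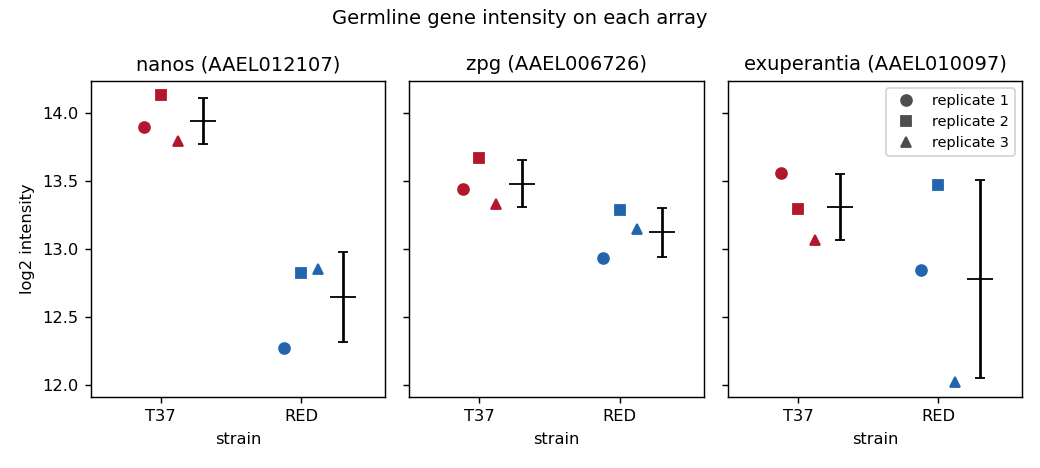
Log2 intensity (vertical axis) of nanos, zpg and exuperantia in T37 (red) and RED (blue), with symbols for the replicates and, beside them, the mean and SD of 3 arrays. The strains are far apart for nanos, lie next to each other without overlap for zpg, and overlap for exuperantia.

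The nanos gene had intensities of 15288, 17915 and 14232 on T37 replicates 1, 2 and 3, against 4944, 7251 and 7409 on RED replicates 1, 2 and 3. The strains did not overlap, and RED replicate 1 was the lowest array. On the log2 scale the gene averaged 13.94 ± 0.17 in the 3 T37 arrays and 12.65 ± 0.33 in the 3 RED arrays (mean ± SD), and the lowest T37 array stood 0.94 above the highest RED array. The log2 difference was 1.29 with a standard error of 0.23 and a 95% interval of 0.74 to 1.84 (limma adjusted p = 0.037). As a fold change it was 2.45, with an interval of 1.68 to 3.58. Within the arrays nanos lay at percentiles 91.6, 93.7 and 91.1 in T37, against 72.5, 79.5 and 79.8 in RED. Among all genes, 97.3% had a lower value of this difference, and nanos ranked 345 from the top of 12813, so that it was not among the extremes of the comparison. Within its brightness decile 99.1% of genes had a lower value.

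The nanos call was lost in 5 of the 6 fits that leave out 1 array, in which calls fell over the whole table as well, to between 10 and 313 genes (0.078% to 2.44%) from 580. Leaving out T37 replicate 1 gave a log2 difference of 1.31 with limma adjusted p = 0.166. Without T37 replicate 2 the difference was 1.20 (limma adjusted p = 0.186), and without T37 replicate 3 it was 1.36 (limma adjusted p = 0.067). It was 1.10 without RED replicate 1 (limma adjusted p = 0.1) and 1.38 without RED replicate 2 (limma adjusted p = 0.096). Across these fits the size of the difference stayed within the 95% interval of the full fit. This is a weak check, since each fit shares all but 1 of its arrays with the full fit. The call was kept only without RED replicate 3, the array least like the others of its strain (r = 0.874 and 0.891 to RED replicates 1 and 2, across genes). There the difference was 1.39, the limma adjusted p 0.03 and the share of all genes called 7.47%. Every 95% interval in these fits lay above 0, the lowest bound being 0.50.

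The innexin gene zpg was the steadiest of the 3 when the SD was pooled over the strains. In T37 alone nanos was as steady (SD 0.17 for each). It had intensities of 11118, 13019 and 10305 on T37 replicates 1, 2 and 3, against 7827, 10009 and 9080 on RED replicates 1, 2 and 3. The strains did not overlap, but the lowest T37 array and the highest RED array were only 0.04 apart on the log2 scale. Means were 13.48 ± 0.17 in the 3 T37 arrays and 13.12 ± 0.18 in the 3 RED arrays (mean ± SD). The log2 difference of 0.36, with a standard error of 0.19 and a 95% interval of -0.10 to 0.81, did not pass the test (limma adjusted p = 0.32), and as a fold change the interval ran from 0.94 to 1.75. Its percentiles were 86.6, 89.3 and 86.4 in T37, against 81.6, 85.2 and 84.0 in RED. The SD between replicates, pooled over the strains, was 0.18, and 17.3% of genes had a lower one. The interval leaves room for a difference of up to 1.75-fold, so the strains are not shown to be alike in zpg.

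Exuperantia, the RNA localisation factor, varied most. Its intensities were 12043, 10066 and 8605 on T37 replicates 1, 2 and 3, against 7371, 11342 and 4160 on RED replicates 1, 2 and 3. The strains overlapped: RED replicate 2 was above 2 of the T37 arrays, and RED replicate 3 was the lowest of all. Log2 means were 13.31 ± 0.24 in the 3 T37 arrays and 12.78 ± 0.73 in the 3 RED arrays (mean ± SD). The difference of 0.53, with a standard error of 0.38 and a 95% interval of -0.41 to 1.46, did not pass the test (limma adjusted p = 0.484). The fold interval, 0.76 to 2.76, is the widest of the 3 genes. Percentiles ran from 83.1 to 87.9 in T37, against 67.8 to 87.4 in RED.

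The RED arrays of exuperantia spread to both sides. On RED replicate 2 the gene deviated by 1.03 on the log2 scale from the mean of the other RED arrays, more than 97.0% of all genes on that array. On RED replicate 3 it deviated by -1.14 from the mean of the others, and 12.7% of all genes deviated further downward on that array. On that array nanos was 0.31 and zpg 0.04 above the mean of the other RED arrays, and on RED replicate 2 they were 0.26 and 0.25 above it. Without RED replicate 3 the exuperantia difference was 0.15 (95% interval -0.51 to 0.81; limma adjusted p = 0.744). Without RED replicate 2, the brightest RED array for this gene, it was 0.87 (95% interval 0.04 to 1.71; limma adjusted p = 0.223). The direction stayed the same in both fits, and neither passed the test.

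**Figure D3:**
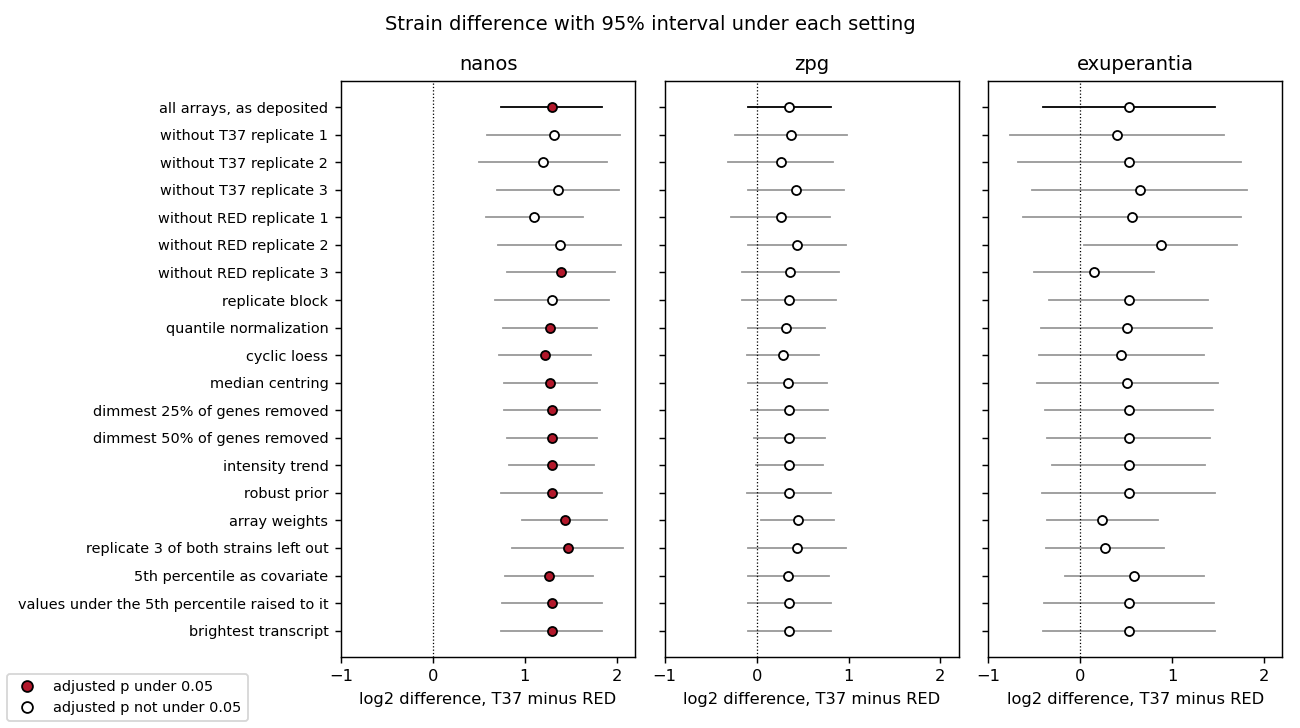
Log2 difference T37 minus RED (horizontal axis) for nanos, zpg and exuperantia with its 95% interval, for the fit of all arrays as deposited and for each alternative; filled points have a limma adjusted p under 0.05. All nanos intervals lie above 0, while those of zpg and exuperantia include 0 except for zpg with array weights and exuperantia without RED replicate 2.

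Ratios between the genes within an array cancel any brightness shift common to that array, and show whether the genes changed alike. The log2 ratio of nanos over zpg was 0.46, 0.46 and 0.47 on T37 replicates 1, 2 and 3, against -0.66, -0.47 and -0.29 on RED replicates 1, 2 and 3. The strains did not overlap, with means of 0.462 ± 0.0033 in the 3 T37 arrays and -0.474 ± 0.185 in the 3 RED arrays (mean ± SD). This difference of 0.94 had an exact permutation p of 0.1 (two-sided, n = 3 each), the smallest that 3 arrays against 3 allow, and 0.3 after Benjamini-Hochberg adjustment over the 3 ratios. In T37 the 2 genes thus moved together from array to array, although only 3 arrays bear on this. Only 2 of 12812 genes had a smaller spread of their ratio to nanos in T37, and the median gene had a spread of 0.272. In RED the ratio's spread of 0.185 was undercut by 8.67% of genes. The spread was looked up after the ratios had been seen, so its rank describes the same 3 arrays and is not a test. In T37 the ratio of nanos over exuperantia had an SD of 0.256.

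Ratios to exuperantia did not separate the strains. The log2 ratio of nanos over exuperantia was 0.34, 0.83 and 0.73 on T37 replicates 1, 2 and 3, against -0.58, -0.65 and 0.83 on RED replicates 1, 2 and 3. Its mean difference of 0.76 had an exact permutation p of 0.4 (two-sided, n = 3 each), and 0.6 after adjustment over the 3 ratios. The value on RED replicate 3, where exuperantia was low, was as high as the highest T37 value. For exuperantia over zpg the values were 0.12, -0.37 and -0.26 in T37 and -0.09, 0.18 and -1.13 in RED, a mean difference of 0.17 with an exact permutation p of 0.9 (two-sided, n = 3 each), also 0.9 after adjustment.

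**Figure D4:**
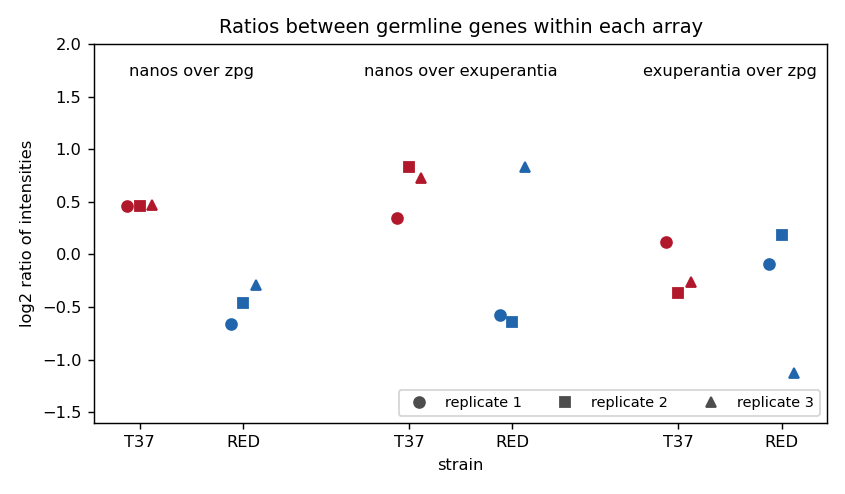
Log2 ratio of intensities (vertical axis) for 3 pairs of germline genes within each array, by strain (T37 red, RED blue) and replicate. The nanos over zpg values of T37 lie within 0.01 of each other and above all RED values, and the other pairs overlap between strains.

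The profiles over the 6 arrays, taken as log2 intensity minus the gene's own mean, were then compared with those of all other genes. For nanos the most similar of 12810 genes was AAEL002328, at a mean absolute difference of 0.078 against a median of 0.692 over all genes. For zpg it was AAEL015276, at 0.022 against a median of 0.356, and for exuperantia AAEL000217, at 0.071 against a median of 0.51. The files pair these identifiers with no name. With so many genes and 6 arrays, close matches are to be had for any profile, and these are descriptions only.

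The members' profiles were also set against each other. The profile of exuperantia lay 0.328 from that of zpg, with 16.3% of genes nearer to exuperantia and 45.5% nearer to zpg. That of nanos lay 0.468 from zpg, with 18.8% of genes nearer to nanos and 63.9% nearer to zpg. It lay 0.575 from exuperantia, with 32.7% of genes nearer to nanos and 60.9% nearer to exuperantia. No gene beside the measured 3 was used as a germline marker, and no marker of somatic testis cells or of other tissue was used, so the part of cell composition in these values was not tested.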

How the data were processed

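Total RNA of pupal testes was hybridised to 6 one-colour arrays labelled with Cy3. The authors deposited linear intensities, 1 for each transcript on each array, processed with RMA per the submitters' processing notes; RMA makes array distributions alike, so a shift of all genes in 1 strain would not be seen. The sources used here do not give its version, the array design or the build.

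Intensities were converted to log2 without a pseudocount and transcripts of a gene averaged. Strains were taken from the titles. The test was limma 3.58.1 (R 4.3.3) over all 12813 genes (two-sided, no covariate, no filter, Benjamini-Hochberg, threshold 0.05); ratios used exact permutation tests (scipy 1.17.1). The fit was tested on simulated data with independent noise for each gene and array, so deviations shared across an array were not tested. The number of arrays limits the precision. Named genes are the members and, for each, the 1 other gene with the nearest profile. Members and lists were chosen with earlier results of these data known. Same-numbered arrays were not paired: their deviations from strain means correlated at -0.25, -0.16 and -0.17. Arrays of different number did share deviations. T37 replicates 1, 2 and 3 correlated at 0.42, 0.37 and 0.46 with RED replicates 2, 3 and 1. With RED replicates 3, 1 and 2 they correlated at -0.08, -0.43 and -0.22. The source of these correlations was not tested, and the fit treats the arrays as independent. Alternatives covered left-out arrays, a replicate block, normalisation, dim genes, variance models, array weights, background and transcript summaries.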

Additional observations from a re-analysis of the deposited data

How the results depend on the processing

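The direction of all 3 differences held in all 60 alternative values. It could not change in the replicate block, dim-gene filters, variance models, raised dim values and transcript summaries, which leave each estimate as it was. Of the 60 values, 54 kept their side of the threshold: 14 of 20 for nanos, and 20 of 20 each for zpg and exuperantia, neither called in the full fit. The 6 exceptions were all for nanos: 5 fits without 1 array, whose range over all 6 was 1.10 to 1.39 on the log2 scale, and the fit with the replicate number as a block, at 1.29 (limma adjusted p = 0.131). That block leaves the difference as it was by construction and takes degrees of freedom. It called 0 genes in all (2467 at an unadjusted p under 0.05), against 580 in the full fit. Among the members it changed no call other than that of nanos. No T37 array's deviations correlated best with the RED array of its own number. Other nanos values ran up to 1.47, without replicate 3 of both strains, a fit that called 32.9% of all genes. The limma adjusted p of nanos over all alternatives ran from 0.005 to 0.186. The lowest was with array weights, where 30% of all genes were called, against 4.53% in the full fit. The zpg difference ran from 0.26 to 0.45 (adjusted p 0.084 to 0.719), and that of exuperantia from 0.15 to 0.87 (adjusted p 0.223 to 0.802). With 1 transcript per gene, averaging could not matter. Mean percentiles fell by construction when the dimmest 25% of genes were removed: to 89.5 in T37 and 69.7 in RED for nanos, 83.2 in T37 and 78.1 in RED for zpg, and 80.4 in T37 and 71.3 in RED for exuperantia. The planned values for AAEL004978 were not run. Signal over background could not be assessed without control features.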
